A study of Microhyla fissipes with 9 samples.

Results

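Tadpoles of the rice-field frog Microhyla fissipes that had lived at 90 mg/L of a glyphosate-based herbicide (GBH) were compared with tadpoles kept at 60 mg/L, over the transcripts that both groups expressed well. The compared transcripts were unigenes, that is, transcripts assembled from the reads themselves, with an expression value above 0 in all 6 libraries and averaging 5 FPKM or more across them. FPKM is the number of sequenced fragments scaled to the length of the transcript and to the mapped fragments of the library. This rule kept 38314 of the 426250 unigenes in the table (8.99%), and they are called the members. All 38314 entered the test. The least abundant member had a mean of 5 FPKM, and the nearest unigene left out had 4.998 FPKM. The rule used the level and the presence of a signal, not the dose difference. It does leave out unigenes that are missing at 1 dose, which are counted apart further on.

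The labels give Gosner stage 30, a stage with hind limb buds, for every library, and exposure lasted 10 days. The compared groups were GBH 60 mg/L (3 libraries, columns L_1, L_2 and L_3) and GBH 90 mg/L (3 libraries, H_1, H_2 and H_3), and 3 libraries of unexposed tadpoles (0 mg/L, C_1, C_2 and C_3) were used for the shared estimate of spread. RNA came from whole tissue and was selected for poly-A tails. Each dose had 5 containers of 20 tadpoles in 1000 mL of water, but the labels do not tie a library to a container or give the number of tadpoles in it, so p-values measure the spread between libraries, and some of it may be technical. The table pairs no unigene with a gene name. The tissue could therefore not be checked against marker genes, and unigenes are given by identifier and level, without a function.

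Glyphosate blocks an enzyme of the shikimate pathway, by which plants make aromatic amino acids and which animals lack. Commercial products add surfactants, which can act on gills and other epithelia of aquatic animals. Tadpoles respond to many pollutants through detoxifying enzymes, stress proteins and shifts in energy metabolism, and the series title names a metabolic switch as its subject. The comparison of the 2 exposed groups asks how far such a response depends on the dose once exposure is already sublethal.

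The members carried most of the measured expression. They held 83.9% ± 0.469 of the summed FPKM at 60 mg/L and 84.4% ± 0.696 at 90 mg/L (SD, n = 3 each), with a two-sided exact permutation p = 0.3. Their median level was 11.7 ± 0.283 FPKM at 60 mg/L and 11.7 ± 0.322 FPKM at 90 mg/L (SD, n = 3 each, exact permutation p = 1). In these tests 3 libraries against 3 cannot give a p below 0.1, and all adjusted p-values over 5 such tests were 1. As FPKM are scaled to the fragments of each library, a change shared by all transcripts alike would not show in the members' median level. In controls this level was 9.78, 8.82 and 10.11 FPKM in C_1, C_2 and C_3, though the members' rule used the exposed libraries alone. In number, 16116 members had a mean of 5 to 10 FPKM, 14130 of 10 to 30, 5423 of 30 to 100, 2345 of 100 to 1000 and 300 of at least 1000 FPKM. The 300 most abundant alone held 40.2% of the summed FPKM at 60 mg/L and 41.0% at 90 mg/L. Most members, 35874, were also above 0 in the 3 control libraries, and 61 were listed at 0 in all of them. Of the members, 99.03% shared the identifier stem Cluster-47276, as did 78.7% of the table. What the stem marks is not stated by the sources at hand, so members may share sequence.

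Read totals are not in the table. Relative depth, read from the steps between low FPKM values with C_1 set to 1, was 0.861, 0.963 and 1.01 in L_1, L_2 and L_3 and 0.763, 0.885 and 1.084 in H_1, H_2 and H_3 (exact permutation p = 0.8). On the first principal component of all 147577 tested unigenes, with 22.7% of the variance, C_2, L_2 and H_3 lay at 304, 261 and 160, while the other 6 spanned -174 to -62.7. C_2, L_2 and H_3, 1 of each dose, are called the libraries that lie apart. Results are therefore also given with a term for them or without them. They were picked from these same values, so such fits narrow the spread in part by that choice.

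Over the members, pairs of libraries of the same dose and of different doses covered like distances, and pairs with 1 library that lies apart were farther from each other. The median absolute log2 difference between a pair of libraries over the members, on the log2(FPKM + 1) scale, measures that distance. L_1 and L_3, both at 60 mg/L, differed by 0.279, and H_1 and H_2, both at 90 mg/L, by 0.333. The 4 pairs that crossed the doses among these 4 libraries differed by 0.277 to 0.360, a range that holds the distance of H_1 and H_2 and begins just below that of L_1 and L_3. The smallest of all 15 distances, 0.277, was that of L_3 and H_1, a pair of different dose. L_2 and H_3, which lie apart and had different doses, differed by 0.357. Pairs with 1 library that lies apart differed by 0.476 to 0.683 at the same dose and by 0.495 to 0.664 across doses. In 17548 members (45.8%) L_2 and H_3 lay both above or both below the other 4 libraries, against 2189 (5.71%) in which the 2 doses did not overlap. The first count follows libraries picked for their place on the principal component, so it describes that component and tests nothing.

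**Figure D1:**
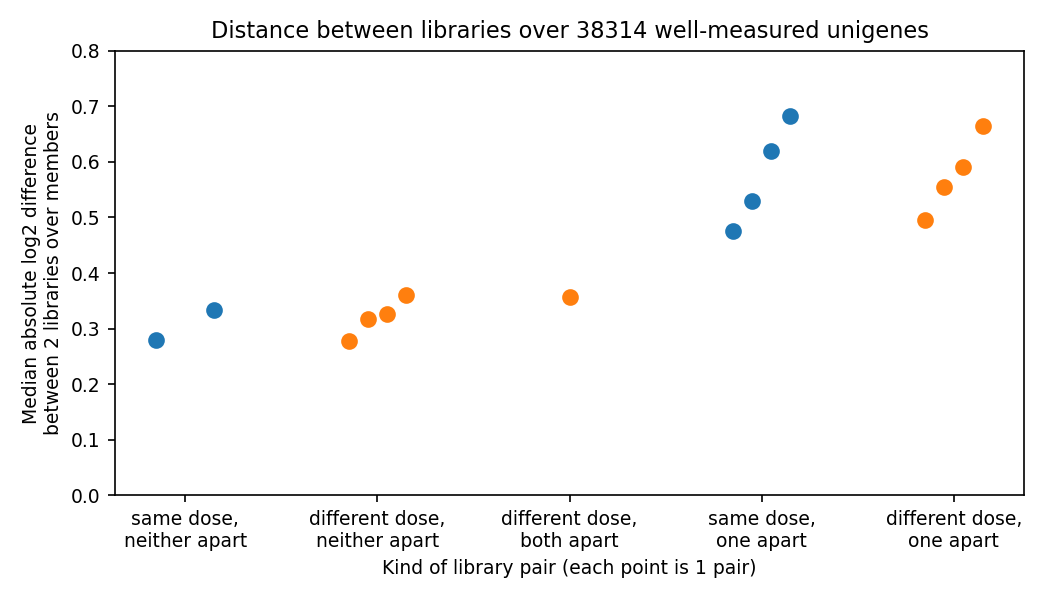
Median absolute log2 difference over the 38314 members (vertical axis, log2(FPKM + 1) scale) for each of the 15 pairs of the 6 exposed libraries, grouped by whether the pair shares a dose (blue) or not (orange) and by how many of its libraries lie apart. Same-dose and different-dose pairs cover like ranges, 0.279 to 0.333 and 0.277 to 0.360 where neither library lies apart, while pairs with 1 that does reach 0.683.

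No member passed the test of 90 against 60 mg/L. The test was limma's moderated test on log2(FPKM + 1), fitted to all 147577 unigenes that averaged 1 FPKM or more across the 9 libraries and adjusted over all of them by Benjamini-Hochberg. It called 0 of the 38314 members, with a lowest adjusted p of 0.227, and 65 of all tested unigenes (0.044%), which were 0.0224% higher and 0.0217% lower at 90 mg/L. Members with an unadjusted p under 0.05 numbered 564 (1.47%, against 3.76% of the whole tested set). Of these, 310 were higher (0.809%, against 1.83%) and 254 lower at 90 mg/L (0.663%, against 1.94%). With a robust spread limma called 0 members (559 at an unadjusted p under 0.05), and without a trend also 0 (405). With a term for the libraries that lie apart it called 0, with a lowest adjusted p of 0.0525. In that fit 1448 members had an unadjusted p under 0.05 (3.78%, against 5.21% of the whole tested set). A single member was called with limma fitted to the 6 exposed libraries alone, without C_2, and without L_1, and these cases are described with their unigenes.

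The members as a whole were centred close to 0. Their median log2 difference, 90 minus 60 mg/L, was 0.02, against 0 over all tested unigenes, and 90% of them lay between the values at the 5th and 95th percentile, -0.64 and 0.70. Over the 5 bands of level the median rose, from 0.0042 at 5 to 10 FPKM through 0.017, 0.046 and 0.063 to 0.087 at 1000 FPKM or more. This rise was not tested. FPKM are scaled to the fragments of each library, so a change shared by all transcripts alike could not be seen. The scaling holds a total, to which a few abundant unigenes add much, and does not by itself fix the members' centre at 0. The root mean square difference over the members was 0.42, while its root mean square standard error, from the spread between libraries of the same dose, was 0.60. With a term for the libraries that lie apart the standard error was 0.46, and without these libraries the difference and the standard error were 0.51 and 0.53. In none of these fits was the difference between the doses wider than the spread between libraries. Each group held 1 library that lies apart, which widened the spread of the first fit, so that fit favoured this outcome. A fitted difference of over 2-fold was found in 1376 members (3.59%), 755 higher and 621 lower at 90 mg/L, and in 17.5% of the whole tested set. One of over 4-fold was found in 89, of which 44 were higher and 45 lower at 90 mg/L. In 71 of these 89, at least 1 library stood at under 10% of the member's own mean.

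**Figure D2:**
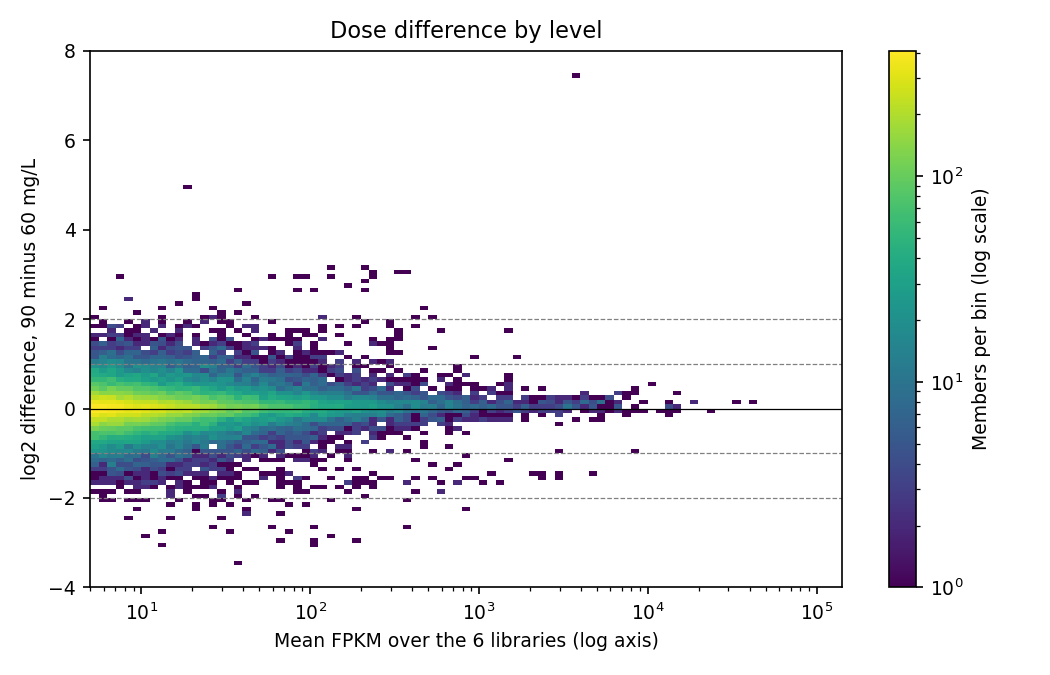
Log2 difference, 90 minus 60 mg/L, on the log2(FPKM + 1) scale (vertical axis) against the mean FPKM over the 6 libraries (horizontal log axis), as the number of members per bin (colour, log scale), with dashed lines at 2-fold and 4-fold. The members centre on 0.02, and 89 lie beyond 4-fold. The share beyond 2-fold is 3.00% at 5 to 10 FPKM and 5.59% at 100 to 1000 FPKM, on a scale whose pseudocount shrinks differences of low members more.

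The intervals bound how large a dose difference each member still allows. The 95% interval of a member reached a median of 0.99 to either side of its difference on the log2 scale. In 12374 members (32.3%) the whole interval lay within a 2-fold difference either way, against 13.7% of all tested unigenes. Within 4-fold it lay in 31877 members (83.2%, against 57.4%), and within 8-fold in 36906 (96.3%, against 80%). The outer end of the interval, the largest fold difference it holds in either direction, was 2.36-fold for the median member, 3.32-fold at the 75th percentile and 6.98-fold at the 95th. An equivalence test (2 one-sided tests with limma's moderated standard error, adjusted over all tested unigenes) placed 32610 members (85.1%) below a 4-fold difference at an adjusted p under 0.05, against 59.7% of all tested unigenes. The tested set includes the members, and also low unigenes and those with a 0, which the members' rule leaves out. The higher shares among members are thus in part set by the choice. The same choice bears on the calls and on the shares at an unadjusted p under 0.05 and beyond 2-fold given above. The intervals allowed a rise of over 4-fold in 4153 members and a fall of over 4-fold in 3586. A missed threshold thus does not show equal expression at the 2 doses, and for most members the interval still held a 2-fold difference. All these bounds are on the log2(FPKM + 1) scale and depend on the pseudocount. With a pseudocount of 0.1 in place of 1, 26243 members passed the equivalence test. In that fit 28878 lay within 4-fold and 10498 within 2-fold.

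The count within 2-fold depended on the libraries used. It was 20952 (54.7%) with a term for the libraries that lie apart, at a median reach of 0.70 to either side, and 16814 without them. It was 7602 without L_1, 6906 without L_3, 7329 without H_1, 7509 without H_2 and 7325 without H_3. The count within 4-fold moved less, to 34225 with the term and to between 28212 and 33334 when any 1 of the 9 libraries was left out. The bounds with the term may be too tight, as its libraries were picked from these same values.

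How tight the bound was depended on level. The outer end for the median member was 2.47-fold at 5 to 10 FPKM, 2.34-fold at 10 to 30, 2.20-fold at 30 to 100, 1.97-fold at 100 to 1000 and 1.68-fold at 1000 FPKM or more. Over the same bands, the share of members held within 2-fold was 24.8%, 33.3%, 41.4%, 51.3% and 72.0%. The share held within 4-fold did not rise in the same way, with 84.3%, 82.5%, 80.99%, 83.6% and 94.0%. Members of 30 to 100 and 100 to 1000 FPKM thus had narrow intervals at the median and a longer tail of wide ones, and the shares held within 8-fold were 92.7% and 91.0% there, and 98.5% at 5 to 10 FPKM.

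**Figure D3:**
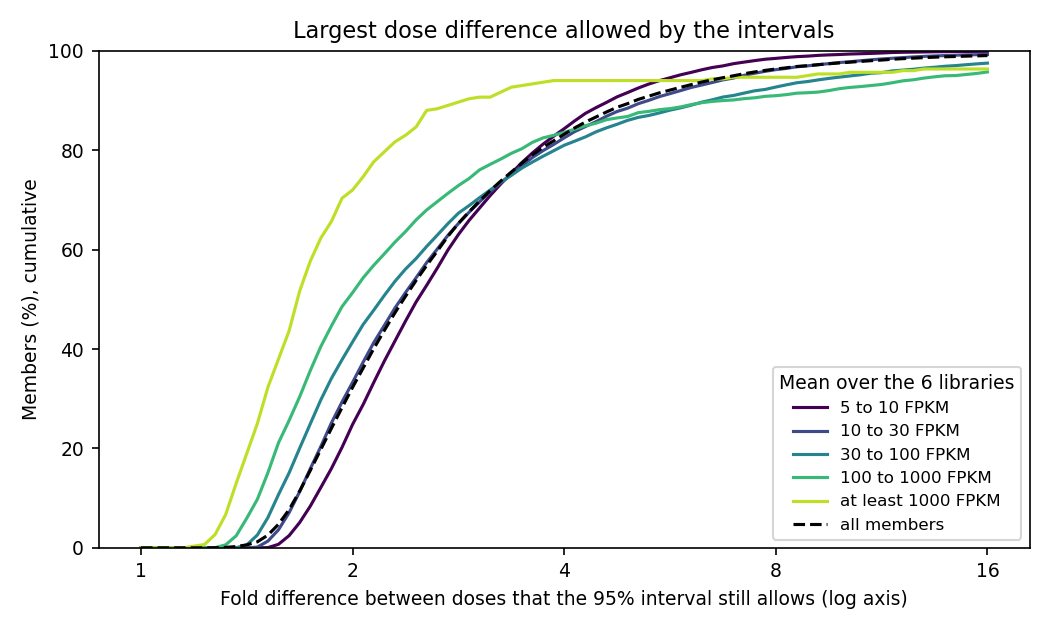
Cumulative share of members (vertical axis, %) by the fold difference between the doses that the 95% interval still allows (horizontal log axis), for 5 bands of mean FPKM and for all members (dashed). At 2-fold the curves stand between 24.8% for 5 to 10 FPKM and 72.0% for at least 1000 FPKM, and at 4-fold they lie between 80.99% and 94.0%.

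Members with 1 library far below their mean had wide intervals. The interval reached past 4-fold in 6437 members (16.8%). A library below 10% of the member's own mean was found in 881 members, and 874 of these reached past 4-fold, against 14.9% of the other 37433. The interval is computed from the spread of these same libraries, so a library that low widens it by construction. L_2 was the lowest library in 502 of the 881 and H_3 in 147, and each of the other 4 in 49 to 71. L_2 also lay farthest from the median of the 6 libraries in 39.0% of all members, H_3 in 16.4%, and each of the others in 8.57% to 12.8%.

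The dose difference in the 4 libraries that do not lie apart and that in the 2 that do were nearly uncorrelated. The difference was taken from H_1 and H_2 against L_1 and L_3, and separately from H_3 against L_2, so that both values of a member come from different libraries. Across the 38314 members they correlated at a Pearson r of -0.0046 and a Spearman rho of -0.0598. These are correlations across unigenes, which share the libraries and are not independent replicates. Among the 8068 members of at least 30 FPKM the Pearson r was 0.0583. A difference of over 2-fold was found in 2316 members in the 4 libraries, 1164 higher and 1152 lower at 90 mg/L. H_3 against L_2 had the same sign in 1164 of the 2316 (50.3%, against 46.96% of all members). It was itself over 2-fold in the same direction in 407 and in the opposite direction in 381. The value from H_3 and L_2 rests on 1 library per dose and has no replicate. It was over 2-fold higher at 90 mg/L in 3225 members and lower in 2079. These 2 libraries lay at 160 and 261 on the first principal component, so their difference also holds how far each lies apart. A correlation near 0 therefore cannot show that the 2 sets share no dose difference.

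**Figure D4:**
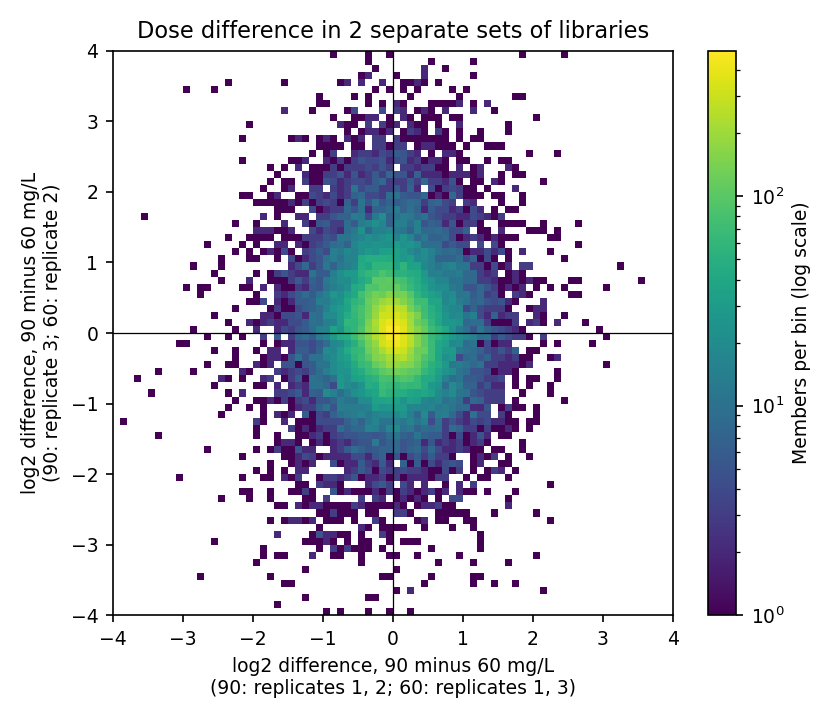
Log2 difference, 90 minus 60 mg/L, from H_1 and H_2 against L_1 and L_3 (horizontal axis) and from H_3 against L_2 (vertical axis), both on the log2(FPKM + 1) scale, as members per bin (colour, log scale). The cloud of 38249 members is centred on 0 without a slope (Pearson r of -0.0046 over all members), and 65 members lie outside the axes.

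Without any model of the spread, the 3 libraries of 1 dose lay wholly above the 3 of the other in 2189 members (5.71%), against 6% of all tested unigenes. Of these, 1207 were higher (3.15%, against 3.02%) and 982 lower at 90 mg/L (2.56%, against 2.98%). By level, 463 were higher and 465 lower at 5 to 10 FPKM, and 450 and 356 at 10 to 30. These were 187 and 121 at 30 to 100, 99 and 37 at 100 to 1000, and 8 and 3 at 1000 FPKM or more. Members share the libraries, and this split by level was not tested. For 1 unigene a separation of the 2 doses has an exact permutation p of 0.1. The 2 members with the smallest p in each direction are given with their values. They were picked for a small p in these same libraries. Their differences may therefore be too large, and their intervals describe them without a separate test.

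Cluster-47276.214478 had 0.15, 0.13 and 0.33 FPKM at 60 mg/L and 23.49, 44.4 and 41.14 FPKM at 90 mg/L. The controls had 10.03, 0.14 and 11.77 FPKM, so that C_2 lay with the 60 mg/L libraries and the other 2 controls lay between the doses. Its log2 difference was 4.91 (SE 0.83, 95% interval 3.02 to 6.80), with a limma adjusted p of 0.227. Its adjusted p was 0.00915 without C_2 and 0.0398 with limma fitted to the 6 exposed libraries alone, and it was the member called in those 2 fits. Without all 3 libraries that lie apart, C_2 among them, it was 0.0648 and there was no call. Over all 19 alternatives its adjusted p ranged from 0.00915 to 0.573 and its log2 difference from 4.74 to 6.91.

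Cluster-47276.246416 was the next among those higher at 90 mg/L. It stood at 1.37, 3.08 and 1.01 FPKM at 60 mg/L, at 12.81, 7.72 and 22.75 FPKM at 90 mg/L and at 8.34, 14.59 and 8.43 FPKM in controls. The 60 mg/L libraries were thus below both other groups, which overlapped with each other. The log2 difference was 2.40 (SE 0.46, 95% interval 1.34 to 3.46, limma adjusted p = 0.378), and the adjusted p over the 19 alternatives ranged from 0.0525 to 0.852.

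Cluster-47276.226475 led those lower at 90 mg/L, with 36.26, 39.3 and 57.97 FPKM at 60 mg/L and 12.02, 13 and 10.2 FPKM at 90 mg/L. The controls, at 15.82, 10.6 and 17.52 FPKM, lay near the 90 mg/L libraries and overlapped with them, while the 60 mg/L libraries were above all other 6. The log2 difference was -1.81 (SE 0.31, 95% interval -2.51 to -1.11), with a limma adjusted p of 0.227 that ranged from 0.103 to 0.657 over the alternatives.

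Cluster-47276.159498 had 66.77, 127.34 and 89.1 FPKM at 60 mg/L and 29.4, 29.98 and 35.16 FPKM at 90 mg/L. Its controls, at 69.86, 69.78 and 104.39 FPKM, fell within the range of 60 mg/L, so here the 90 mg/L libraries were the ones below the rest. The log2 difference was -1.51 (SE 0.30, 95% interval -2.20 to -0.82, limma adjusted p = 0.426, with 0.248 to 0.760 over the alternatives). In Cluster-47276.246416 and Cluster-47276.226475 the dose that did not overlap with the controls was thus 60 mg/L, and in Cluster-47276.159498 it was 90 mg/L.

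**Figure D5:**
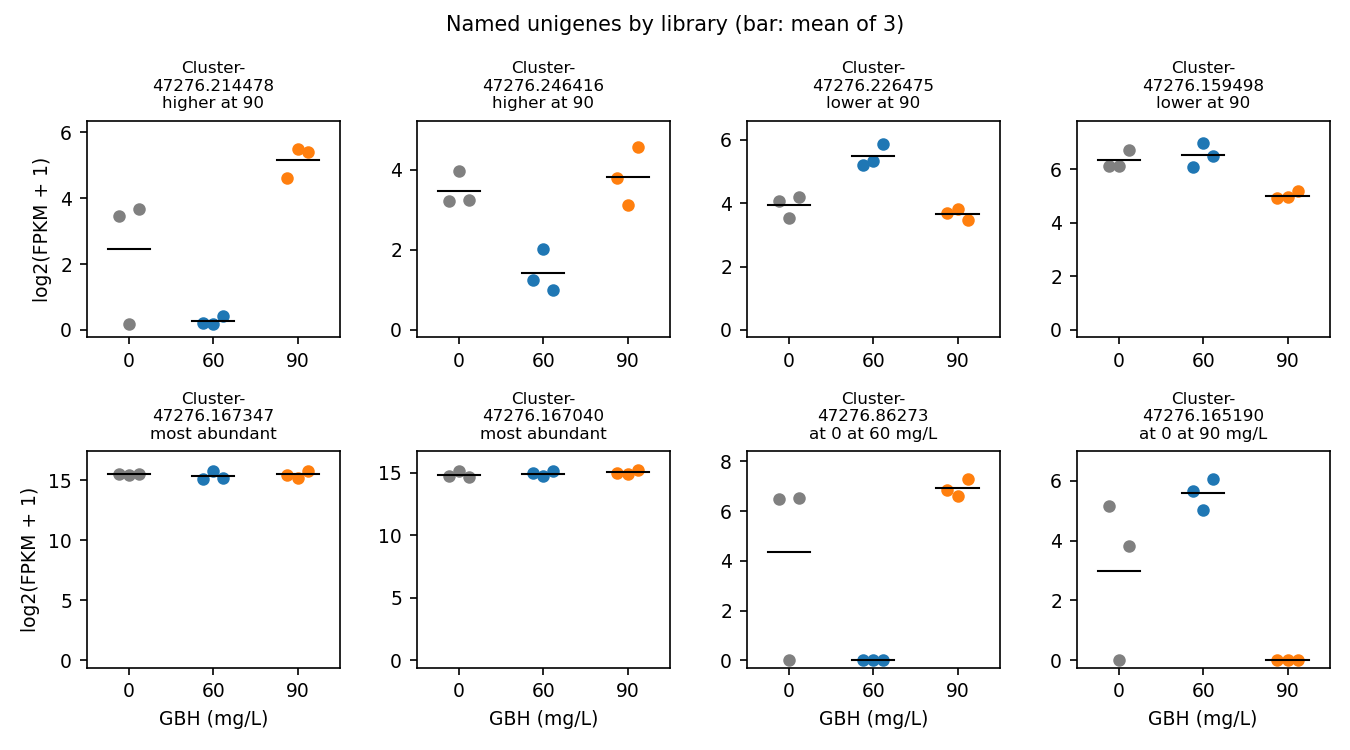
Expression as log2(FPKM + 1) (vertical axis) in each library at 0, 60 and 90 mg/L (points; the bar is the mean of 3) for 4 members with separated doses, the 2 most abundant members and 2 unigenes listed at 0 in a whole dose. In the first 4 panels the 3 libraries of 60 and 90 mg/L do not overlap, and in the 2 panels of abundant members all 9 points lie close together.

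The median bound was tightest in the band of at least 1000 FPKM, although that band also held the widest interval of all members, 7.25 to either side on the log2 scale, and had 94.7% within 8-fold. Cluster-47276.167347, the most abundant member, measured 35979.5, 55806.59 and 36049.67 FPKM at 60 mg/L and 44233.19, 37634.82 and 57065.24 FPKM at 90 mg/L. Its highest library at either dose was the one that lies apart, and the doses overlapped. The 95% interval of its ratio of 90 to 60 mg/L ran from 0.802 to 1.49. The second, Cluster-47276.167040, measured 31567.8, 26669.37 and 34747.1 FPKM at 60 mg/L and 32207.43, 30672.36 and 36769.84 FPKM at 90 mg/L, with an interval from 0.857 to 1.35. The narrowest interval of all members was that of Cluster-47276.170246, at 14380.08, 15104.89 and 15199.47 FPKM against 15192.99, 13137.88 and 16307.29 FPKM. It allowed a ratio of 0.845 to 1.17. This interval and the next narrowest were picked for their width, so both may be too narrow. Cluster-47276.167669, with the next narrowest, had 14460.03, 13308.35 and 13366.42 FPKM at 60 mg/L and 15662.66, 12708.09 and 15860.95 FPKM at 90 mg/L (interval 0.897 to 1.28), while its controls stood at 19068.31, 17819.85 and 17407.22 FPKM. All 3 controls lay above both doses, with limma adjusted p-values of 0.426 for 60 mg/L and 0.499 for 90 mg/L against control. Each of these 4 abundant members had an adjusted p of 1 for 90 against 60 mg/L.

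Among the 300 members of at least 1000 FPKM, 13 had a fitted difference of over 2-fold, 10 lower and 3 higher at 90 mg/L, and none of the 13 was called (lowest limma adjusted p of 1). The 10 were picked for their difference in these same libraries. The direction of what follows is thus in part set by the choice, and it describes them without a test. Their summed share of all FPKM was 1.96%, 0.735% and 0.896% in L_1, L_2 and L_3 and 0.663%, 0.484% and 0.140% in H_1, H_2 and H_3. In the controls it was 3.78%, 0.113% and 3.19%. The share was thus low in C_2 and H_3, which lie apart. In L_2, the third such library, the highest of the 10 was at 13560.74 FPKM and their median was 279 FPKM, against 5004 FPKM in L_1 and 2043 FPKM in L_3. L_2 lay below both in 8 of the 10. Among the libraries that do not lie apart, the share was highest in controls, lower at 60 and lowest at 90 mg/L. H_3 was the lowest of the 6 exposed libraries in 9 of the 10, and C_2 was under 10% of both other controls in 8. H_1 and H_2 lay below L_1 and L_3 in 8 of the 10, and H_3 below L_2 in all 10, with log2 differences of -1.57 to -0.96 and of -2.89 to -0.57. Over all 300 members of this level, H_1 and H_2 lay below L_1 and L_3 in 38 and above them in 118, and H_3 lay below L_2 in 128. Over all 38314 members, H_1 and H_2 lay below L_1 and L_3 in 6833 and above them in 6937. With a term for the libraries that lie apart, limma called none of the 10 either (lowest adjusted p of 0.957). In bulk tissue, fewer cells of a type and less RNA per cell cannot be told apart.

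Cluster-47276.163058 had the largest difference of the 10 and was named after its values were seen. It stood at 9081.95, 28.56 and 9099.21 FPKM in controls, at 3011.23, 252.95 and 1390.37 FPKM at 60 mg/L and at 1166.33, 786.72 and 33.26 FPKM at 90 mg/L. The libraries that lie apart were the lowest at every dose, and the other 6 were ordered by dose without overlap. Its 95% interval, -6.89 to 3.50 around a log2 difference of -1.69, was among the widest, and its adjusted p was 1 by limma.

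The largest fitted difference of all members, 7.42 on the log2 scale, was that of Cluster-47276.165845, also named after its values were seen. It stood at 3828.15, 2.07 and 2.5 FPKM at 60 mg/L, at 4456.89, 4510.58 and 10170.8 FPKM at 90 mg/L and at 3794.91, 6248.61 and 3768.8 FPKM in controls. L_2 and L_3 were nearly without it, while L_1 stood with the other libraries. Its 95% interval was 2.12 to 12.7 and its limma adjusted p was 1. Without L_1 the log2 difference was 10.8 and the adjusted p 0.00117, and it was the member called in that fit, so that the call turned on 1 library.

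Members that differed from control were compared between the doses as well. Against control, limma called 80 members at 60 mg/L (0.209%, with 0.205% over the whole tested set), 43 higher and 37 lower. At 90 mg/L it called 104 members (0.271%, against 0.247%), 59 higher and 45 lower. Both comparisons share the controls. The log2 difference of 90 minus 60 mg/L had a median of -0.05 in the 43 and of -0.04 in the 37, and of 0.32 in the 59 and -0.14 in the 45. The 43 were picked for high and the 37 for low values at 60 mg/L, and the 59 and 45 likewise at 90 mg/L. This choice moves the medians of the 43 and the 45 down and those of the 37 and the 59 up. The signs are thus in part set by the choice, except in the 37, whose median of -0.04 went the other way. The 95% interval of 90 against 60 mg/L lay within 4-fold in 39 of the 43, 35 of the 37, 51 of the 59 and 43 of the 45. It lay within 2-fold in 7, 24, 11 and 26 of them. Over all members the shares within 4-fold and 2-fold were 83.2% and 32.3%. A call against control favours members of small spread in the same fit, so these counts too are in part set by the choice.

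Unigenes missing at 1 dose were counted apart. Of the 50095 unigenes that averaged 5 FPKM or more across the 6 libraries, 38314 (76.5%) were the members, 713 (1.42%) were listed at 0 in all 3 libraries of 60 mg/L and 637 (1.27%) in all 3 of 90 mg/L. The remaining 10431 (20.8%) were listed at 0 in 1 or 2 libraries of a dose. The members held most of the expression of these classes, since the 713 made up 0.393% of the summed FPKM at 90 mg/L and the 637 made up 0.339% at 60 mg/L. Unigenes listed at 0 in exactly 1 of the 6 libraries numbered 4614, and that library was H_1 in 1284, L_2 in 881, L_1 in 850, and H_2, H_3 or L_3 in 529 to 540 each. H_1 was the library of lowest relative depth, 0.763. Whether depth bears on these zeros was not tested.

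Most of the unigenes listed at 0 in a whole dose were not present throughout the other. Of the 713, only 93 were above 0 in all 3 libraries of 90 mg/L, while 261 were above 0 in 2 and 359 in 1. Of the 637, 103 were above 0 in all 3 libraries of 60 mg/L, 320 in 2 and 214 in 1. Among the 93, 18 were above 0 in all 3 controls and 23 were listed at 0 in all of them, and among the 103 these were 16 and 25. Limma called 27 of the 713, 25 of the 637 and 1 of the 10431, against 65 (0.044%) over the whole tested set. The 713 and the 637 reached the mean of 5 FPKM through 1 dose alone. Their dose difference is thus set by the choice, and the calls do not test it. A group listed at 0 adds no spread to the fit, so the p-values of such unigenes may be too small, and no fold change can be given for them.

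The highest of these unigenes were named by their lowest value at the dose where they were present. They were thus picked for a large dose difference in these same libraries. The p-values below describe them and are no separate support for that difference. Cluster-47276.86273 was listed at 0 in all 3 libraries of 60 mg/L, with 115.19, 96.74 and 154.52 FPKM at 90 mg/L. In controls it stood at 88.87, 0 and 91.68 FPKM, with C_2 at 0 like the 60 mg/L libraries. Its limma adjusted p was 0.533, with 0.00137 without C_2 and 0.0231 when limma was fitted to the 6 exposed libraries alone. Cluster-47276.165190 stood at 50.08, 31.86 and 65.48 FPKM at 60 mg/L, was listed at 0 in all 3 libraries of 90 mg/L, and stood at 35.03, 0 and 13.01 FPKM in controls. Its adjusted p was 0.398, with 0.0138 without C_2 and 0.0324 in the 6 libraries alone. In Cluster-47276.214478, Cluster-47276.86273 and Cluster-47276.165190 alike, C_2 was at or near 0 and the other 2 controls were not. Leaving out C_2 alone gave a call for each of the 3, and leaving out C_2, L_2 and H_3 together gave none, with adjusted p-values of 0.0648, 0.0637 and 0.0718 by limma.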

How the data were processed

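The authors deposited FPKM with 2 decimals, per unigene and library, whose columns were matched to samples by title. The labels' protocols give poly-A selection and paired-end Illumina sequencing. Which assembler, aligner and counter were used is not given in the sources used here. As FPKM are not counts, limma 3.58.1 in R 4.3.3 was run on log2(FPKM + 1) for the 147577 unigenes that averaged 1 FPKM or more across the 9 libraries, with 1 mean per dose, 6 residual degrees of freedom and a trend. Intervals used the moderated standard error with 8.69 total degrees of freedom. No sampling error per value is known from FPKM, a pseudocount of 1 understates changes of low unigenes, and a few abundant transcripts can move all other values.

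Members and lists were chosen with earlier results of these data known. Named were the 2 members with the smallest p in each direction among those whose doses did not overlap, the 2 most abundant, the 2 with the narrowest intervals, and 1 unigene per dose listed at 0 there. Alternatives were another pseudocount, other filters, scaling, samples, spread models, a replicate block and leaving out libraries. Tables and figures used data.table (1.17.8), pandas 2.3.3 and matplotlib 3.10.9.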

Additional observations from a re-analysis of the deposited data

How the results depend on the processing

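Leaving out any 1 of the 9 libraries gave 0 to 126 called unigenes in place of 65 and 0 to 1 called members in place of 0. In the same fits the median difference of members ranged from -0.01 to 0.04, the median reach of the interval from 0.88 to 1.16, the root mean square difference from 0.42 to 0.52 and its standard error from 0.52 to 0.71. Members within 2-fold ranged from 6906 to 15389, within 4-fold from 28212 to 33334 and past the equivalence test from 27966 to 34018. Leaving out 1 of the 6 exposed libraries raised the members without overlap from 2189 to between 4345 and 8647, since 3 libraries against 2 separate more easily, and unigenes at 0 in a whole dose ranged from 470 to 1656 for 60 mg/L and from 528 to 1653 for 90 mg/L. Without the libraries that lie apart, 0 unigenes were called (8566 at an unadjusted p under 0.05), and 1510 and 1432 were at 0 in a whole dose. In that setting 13770 members did not overlap, and 2 libraries against 2 separate more easily still. For the counts without overlap in this paragraph, no share over all tested unigenes was computed. They are therefore not read as dose differences. All called unigenes numbered 4 when only those averaging 5 FPKM or more were tested, and 118 without a trend, and limma fitted to the 6 exposed libraries called 1 member. With no filter, 35488 and 39025 unigenes were at 0 in all of 60 or 90 mg/L. With the term for the libraries that lie apart, 20952 members lay within 2-fold. Among members of at least 10 FPKM, which are fewer, 18638 passed the equivalence test, 18288 lay within 4-fold and 1261 did not overlap.

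With a replicate block, 0 members were called by limma (613 at an unadjusted p under 0.05) and 0 of all unigenes. Same-numbered libraries correlated in their deviations at 0.101, -0.0681 and -0.112. L_2 and H_3, which lie apart and carry different numbers, correlated at 0.227 and weigh on those values. The correlations therefore cannot exclude pairs, and the main fit did not take the numbers as pairs.

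Differences near 0 changed sign. When 1 library was left out, the log2 difference ranged from -5.45e-05 to 0.191 for Cluster-47276.167040 (-0.0755 with the 3 that lie apart removed), from -0.0306 to 0.341 for Cluster-47276.167347 and from -0.0758 to 0.0801 for Cluster-47276.170246. The difference in unigenes above 0 FPKM, 90 minus 60 mg/L, ranged from -8782.8 to 8004.7 and that of the members' median FPKM from -0.272 to 0.0233. Filters do not alter the values per library or the overlap of doses. The cause of these shifts was not tested. FPKM give no counts, so the part of depth in these bounds was not tested.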
